A study of Mus musculus with 6 samples.

Results

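The Bcl2 family genes described here are Bcl2, Bcl2l1, Mcl1, Bcl2l11, Bid, Bad, Bak1, Bmf and Bik. They are 9 of the 38924 rows of a table of RPKM values (read counts scaled by gene length and by the reads of the library), were taken by symbol and were each found on 1 row. The cells were GFP+ Lin- c-kit+ bone marrow cells of C57BL/6 mice, that is, cells that carry the vector, lack markers of mature lineages and bear the stem and progenitor receptor c-kit. All came from mice that received transduced marrow whose vector expresses GFP, and the groups differ in what else the vector carried and in time. The leukemia group (2 libraries) had received Evi1-GFP marrow and was sampled at 6 months, the preleukemia group (2 libraries) had received Evi1-GFP marrow and was sampled at 4 weeks, and the mock group (2 libraries) had received GFP marrow and was sampled at 4 weeks. No GFP group at 6 months was analysed here, so that time and leukemia cannot be told apart. Nothing in the labels tells whether each library is its own mouse or pool of mice. The p-values set the difference between groups against the spread of libraries within groups, and that spread may be technical.

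Proteins of the Bcl2 family decide whether the outer membrane of the mitochondrion is made permeable, the step that releases cytochrome c and starts the caspases. Survival proteins (Bcl2, Bcl-xL from Bcl2l1, and Mcl1) hold the pore formers Bak and Bax in check. BH3-only proteins (Bim from Bcl2l11, Bid, Bad, Bmf, Bik) sense stress and either occupy the survival proteins or activate the pore formers. Blood stem and progenitor cells are known to need Mcl1, red cell precursors to need Bcl-xL, and Bim to limit the numbers of lymphoid and myeloid cells.

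Totals implied by the steps between low values were 16921317 to 21643433 reads per library, and a single read over 1 kb equalled 0.0462 to 0.0591 RPKM. Mecom, the gene that encodes Evi1, stood at 61.7 and 71.5 RPKM in leukemia, 78.0 and 80.1 in preleukemia, and 0.774 and 0.805 in mock, where vector and mouse reads are not separated. Kit, the gene of the sorted receptor, stood at 49.3 and 46.8 RPKM in leukemia, 60.0 and 56.9 in preleukemia, and 69.2 and 57.7 in mock. In the limma fit described below, Kit was lower in leukemia than in mock (log2 fold change -0.39, limma adjusted p = 0.0472). That call did not hold in 5 of 6 fits with 1 library left out. Of the lineage markers, Cd3e, Cd4, Cd5 and Cd8a stayed under 0.5 RPKM in every library. Itgam, the integrin CD11b of myeloid cells, did not: it stood at 13.7 and 21.7 RPKM in leukemia, 37.1 and 53.2 in preleukemia, and 4.66 and 4.77 in mock. The mock libraries differed more from each other than the libraries of the other groups did. The median absolute difference within a pair was 0.11 in leukemia, 0.11 in preleukemia and 0.22 in mock on the log2(RPKM + 1) scale. Relb and Nr4a1, chosen as examples after their values were seen, stood at 14.9 and 226 RPKM in mock library 2 and at 0.857 and 45.9 RPKM in mock library 1. Results of the members are therefore also given without one or the other mock library where that ends or makes a call or turns the sign.

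Of the 8 members tested, Bcl2 was the one that passed in all 3 comparisons, and it was higher in leukemia and lower in preleukemia than in mock. Bak1, the pore former, was higher in preleukemia than in mock. The 6 other members tested, Bcl2l1, Mcl1, Bcl2l11, Bid, Bad and Bmf, did not pass in any of the 3 comparisons, and Bik was too low to be tested. Groups were compared with limma on log2(RPKM + 1) over the 10957 genes that reached 1 RPKM in 2 or more libraries, with a call at a Benjamini-Hochberg adjusted p under 0.05. By that rule 1 of 8 tested members was called in leukemia against mock (Bcl2, higher), where 25.6% of all genes tested were called and 12.1% were higher. In preleukemia against mock 2 of 8 were called (Bak1 higher, Bcl2 lower), where 19.5% of all genes were called, 13.5% higher and 6.02% lower. In leukemia against preleukemia 1 of 8 was called (Bcl2, higher), where 18.3% of all genes were called and 5.28% were higher. With 8 members, none of these counts stands out from the background of the table. The median log2 fold change of the members was -0.027, -0.060 and -0.047 in the 3 comparisons in that order, where all genes tested had -0.040, 0.054 and -0.091.

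Separation of the libraries alone is common in this table. In leukemia against mock the libraries of the groups did not overlap for 3 of 8 tested members (1 higher, 2 lower), where 65.4% of all genes did not overlap (30.0% higher, 35.5% lower). In preleukemia against mock they did not overlap for 6 of 8 (3 higher, 3 lower), where 62.7% of all genes did not (37.2% higher, 25.5% lower). In leukemia against preleukemia they did not overlap for 8 of 8 (4 higher, 4 lower), where 70.7% of all genes did not (24.7% higher, 46.0% lower).

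**Figure D1:**
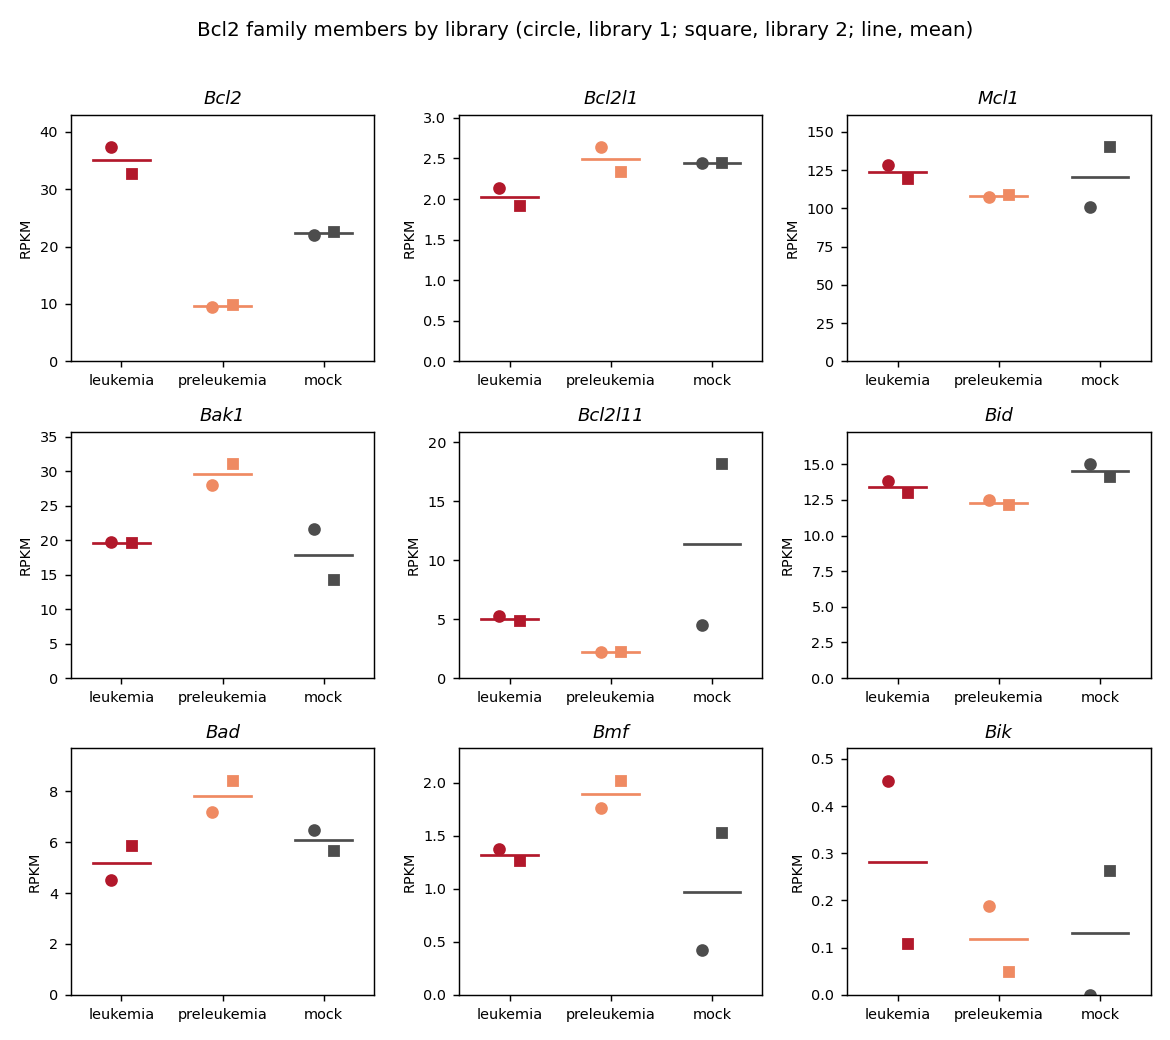
RPKM of the 9 Bcl2 family members in each library, with leukemia, preleukemia and mock from left to right in each panel; circles are library 1, squares library 2 and lines the group mean, and each axis starts at 0 and has its own scale. Bcl2 forms 3 separate levels, while the mock libraries stand apart from each other for Bcl2l11 (4.54 and 18.2 RPKM) and Bmf (0.423 and 1.53 RPKM).

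Among the survival genes, Bcl2 encodes the founding member of the family and occupies chromosome 1 from 106538178 to 106714274 (GRCm38, minus strand, ENSMUSG00000057329.7); like the other members it is annotated as protein coding. It had 37.4 and 32.7 RPKM in leukemia, 9.47 and 9.76 RPKM in preleukemia, and 22.1 and 22.6 RPKM in mock. Every leukemia library lay above every other library, and every preleukemia library below, with no overlap between groups. The means were 35.0 ± 3.303 RPKM in leukemia, 9.62 ± 0.202 RPKM in preleukemia and 22.3 ± 0.376 RPKM in mock (SD, n = 2 each). The ratio of mean RPKM was 1.57 for leukemia over mock, 0.431 for preleukemia over mock and 3.64 for leukemia over preleukemia. The log2 fold change of Bcl2 was 0.62 (SE 0.10, limma adjusted p = 0.00759) in leukemia against mock. In preleukemia against mock it was -1.14 (SE 0.10, limma adjusted p = 0.00141), and in leukemia against preleukemia it was 1.76 (SE 0.10, limma adjusted p = 0.000549). The comparisons with preleukemia passed under all 16 alternatives tried, with values of -1.21 to -1.12 against mock and of 1.67 to 1.86 for leukemia against preleukemia. The rise in leukemia against mock passed under 15 of 16 and did not without leukemia library 1 (0.53, limma adjusted p = 0.0670).

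The groups also differ in their makeup by the markers of other cells. For the counts below, 12.1% of all genes tested were higher and 13.5% lower in leukemia against mock. The shares were 13.5% and 6.02% in preleukemia against mock, and 5.28% and 13.0% in leukemia against preleukemia. The 11 neutrophil markers of the list used here, all of them tested, summed to 479 and 775 RPKM in leukemia, 3908 and 8327 in preleukemia, and 16.1 and 22.7 in mock. In limma 5 of the 11 were higher in leukemia than in mock and 8 were higher in preleukemia than in mock, while Mmp8 and Retnlg were at 0 in leukemia library 1 and Retnlg in mock library 1. Mmp9 reached 1 RPKM in the preleukemia libraries only and passed the filter through them. Of 11 B-lymphoid markers 10 were in the table, and they summed to 12.9 and 12.6 RPKM in leukemia, 18.1 and 19.9 in preleukemia, and 42.5 and 42.4 in mock. Of the 7 tested, 6 were lower and Cd79b was higher than in mock in each of the other groups. In leukemia against preleukemia 1 was lower. Pax5, Igll1 and Il7r were at 0 in both leukemia libraries. Vpreb3, Igll1 and Il7r reached 1 RPKM in the mock libraries only. They passed the filter through the group where they are high, so their lower calls are no separate support. The 9 dendritic and monocyte markers had sums of 123 and 116 RPKM in leukemia, 59.8 and 62.0 in preleukemia, and 106 and 174 in mock. Ly86 was a large part of the difference between the Evi1 groups, at 63.0 and 61.2 RPKM in leukemia and 23.5 and 16.6 in preleukemia. Siglech, under 0.1 RPKM in both, was lower in leukemia, and Flt3 overlapped. Of the 8 tested, 1 was higher in leukemia than in preleukemia and none was lower. Against mock, 4 were lower in preleukemia, and 1 was higher and 2 lower in leukemia. The sum of the 8 megakaryocyte markers was 4.78 and 14.0 RPKM in leukemia, 74.1 and 54.9 in preleukemia, and 34.5 and 34.0 in mock. Pf4 was its largest part in preleukemia, at 43.7 and 30.9 RPKM. The markers did not share 1 order: Itga2b was highest in mock (17.3 and 16.6 RPKM), and Gp6 was at 0 throughout. Of the 7 tested, 3 were lower in leukemia than in mock and 3 were higher in preleukemia than in mock. In leukemia against preleukemia 5 were lower. Ppbp reached 1 RPKM in the preleukemia libraries only and passed the filter through them. The 8 mast cell and basophil markers summed to 74.4 and 73.5 RPKM in leukemia, 77.6 and 64.4 in preleukemia, and 172 and 121 in mock, with Cma1 at 0 throughout, and of the 7 tested 6 were lower in leukemia and 5 lower in preleukemia than in mock. In leukemia against preleukemia 2 of the 7 were lower. Prss34 and Hdc reached 1 RPKM in the mock libraries only and passed the filter through them. The 10 T and NK cell markers summed to 11.9 and 19.0 RPKM in leukemia, 92.98 and 91.3 in preleukemia, and 103 and 70.9 in mock, most of it Nkg7 and Gzmb, with Cd3e at 0 in 5 of 6 libraries. Of the 4 tested, 1 was higher and 2 lower in leukemia than in mock, 2 were higher in preleukemia than in mock, and 3 were lower in leukemia than in preleukemia. Of 10 cell cycle genes tested, 2 were lower in leukemia than in mock in limma, and none passed in preleukemia against mock (1 at an unadjusted p under 0.05) or in leukemia against preleukemia (2 at an unadjusted p under 0.05). The part of these cells in the levels of Bcl2 and Bak1 was not tested. In sorted pools like these, fewer cells of a type and less RNA per cell cannot be told apart.

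Mcl1 encodes a short-lived survival protein of blood progenitors (chromosome 3, 95658788 to 95663176, plus strand, ENSMUSG00000038612.16). It was the most abundant member in each library, at 128 and 120 RPKM in leukemia, 107 and 109 RPKM in preleukemia, and 101 and 140 RPKM in mock. The mock libraries enclosed the values of both other groups. Mcl1 differed by 0.059 on the log2 scale in leukemia against mock (95% interval -0.31 to 0.43, limma adjusted p = 0.805) and by -0.14 in preleukemia against mock (95% interval -0.51 to 0.24, limma adjusted p = 0.567). In leukemia against preleukemia it was 0.20 (95% interval -0.18 to 0.57, limma adjusted p = 0.430). Its sign against mock depended on the mock library. Without mock library 1 the value was -0.18 in leukemia and -0.37 in preleukemia, and the second passed (limma adjusted p = 0.0316), while without mock library 2 the values were 0.30 and 0.10 and neither passed.

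Bcl2l1 encodes Bcl-xL and, by alternative splicing, the shorter Bcl-xS that opposes it, and the gene values do not separate them (chromosome 2, 152780668 to 152831728, minus strand, ENSMUSG00000007659.18). Its level was 2.14 and 1.92 RPKM in leukemia, 2.64 and 2.34 RPKM in preleukemia, and 2.44 and 2.45 RPKM in mock. Leukemia lay below mock in both libraries, and the preleukemia libraries enclosed the mock ones. These values stand for 206 and 173 reads in leukemia, 205 and 232 reads in preleukemia, and 242 and 227 reads in mock. On the log2 scale Bcl2l1 differed by -0.19 in leukemia against mock (95% interval -0.50 to 0.13, limma adjusted p = 0.335) and by 0.017 in preleukemia against mock (95% interval -0.30 to 0.33, limma adjusted p = 0.940). Leukemia against preleukemia gave -0.20 (95% interval -0.52 to 0.11, limma adjusted p = 0.332). Erythroid markers, of cells known to rely on Bcl-xL, moved much further: 11 of 13 were in the table, and they summed to 30.4 and 41.1 RPKM in leukemia, 237 and 161 RPKM in preleukemia, and 429 and 195 RPKM in mock. Of the 10 erythroid markers tested, 9 were lower in leukemia than in mock, where 13.5% of all genes tested were lower. In leukemia against preleukemia 8 were lower, where 13.0% of all genes were. In preleukemia against mock 1 was higher and none lower, where 13.5% of all genes were higher and 6.02% lower. Between those groups the markers did not share 1 order. Car1 had 86.2 and 48.6 RPKM in preleukemia and 174 and 73.4 in mock, while Hba-a1 had 31.6 and 21.1 in preleukemia and 6.10 and 4.81 in mock. Alas2 was at 0 in the leukemia and preleukemia libraries. The part of erythroid cells in the level of Bcl2l1 was not tested.

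Within a library, RPKM can be set side by side between genes, since it is scaled by length. Mcl1 made up 76.5% and 77.5% of the summed RPKM of the 3 survival members in leukemia, 89.8% and 90.0% in preleukemia, and 80.4% and 84.8% in mock. Bcl2 made up 22.2% and 21.2% in leukemia, 7.94% and 8.07% in preleukemia, and 17.6% and 13.7% in mock. Bcl2l1 held 1.25% to 2.21% over the 6 libraries. The sum itself was 168 and 154 RPKM in leukemia, 119 and 121 RPKM in preleukemia, and 125 and 165 RPKM in mock, so that leukemia lay above preleukemia and overlapped mock.

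**Figure D2:**
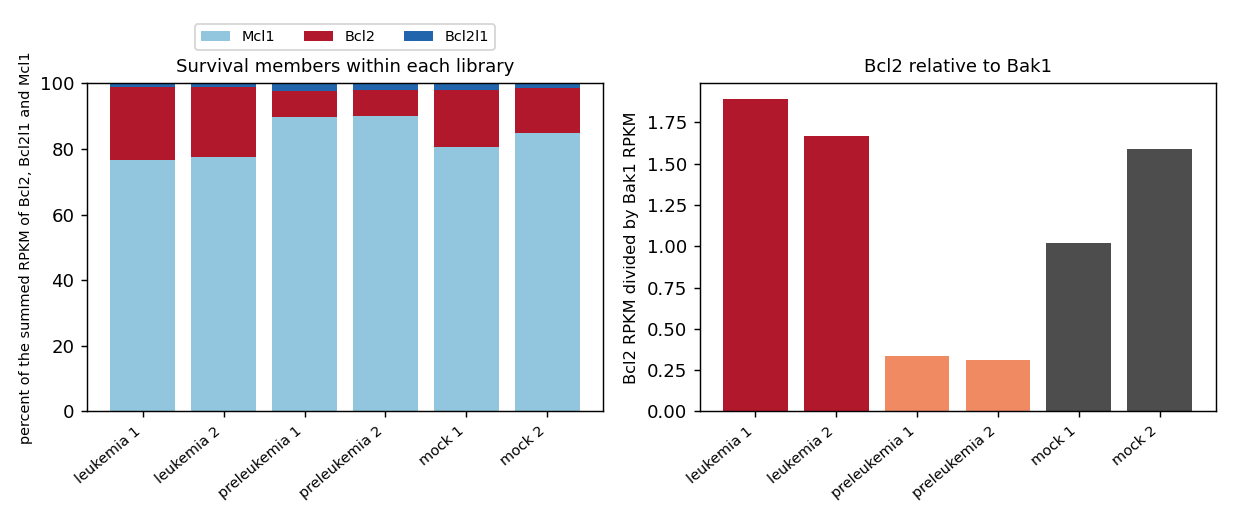
Left, the share in percent of Mcl1, Bcl2 and Bcl2l1 in their summed RPKM in each library. Right, the ratio of Bcl2 to Bak1 RPKM in each library, where bars are single libraries with no error; it is 1.89 and 1.67 in leukemia, 0.338 and 0.314 in preleukemia, and 1.02 and 1.59 in mock.

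Bak1 encodes Bak, which sits in the outer membrane of mitochondria and forms the pore (chromosome 17, 27019810 to 27029009, minus strand, ENSMUSG00000057789.14). It had 19.7 and 19.6 RPKM in leukemia, 28.01 and 31.1 RPKM in preleukemia, and 21.6 and 14.2 RPKM in mock. Both preleukemia libraries stood above the other 4, and the leukemia values fell between the mock ones. Bak1 was higher in preleukemia than in mock by 0.72 on the log2 scale (SE 0.18, limma adjusted p = 0.0383). The difference was 0.16 in leukemia against mock (95% interval -0.28 to 0.59, limma adjusted p = 0.564) and -0.56 in leukemia against preleukemia (SE 0.18, limma adjusted p = 0.0799). The call in preleukemia rested on the libraries used. It did not pass without preleukemia library 1 (0.79, limma adjusted p = 0.125), preleukemia library 2 (0.65, adjusted p = 0.209), leukemia library 1 (adjusted p = 0.0728) or leukemia library 2 (adjusted p = 0.0726), and the last 2 leave the value at 0.72. Without mock library 1 the value was 1.00 (adjusted p = 0.00262) and without mock library 2 it was 0.43 (adjusted p = 0.0368).

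Leukemia against preleukemia leaves the mock libraries out of the difference but keeps them in the shared spread. Fitted on the 4 Evi1 libraries alone, Bak1 was lower in leukemia (log2 fold change -0.56, limma adjusted p = 0.00686). In limma's fit of leukemia against mock without mock library 1, Bak1 was higher by 0.44 (adjusted p = 0.0215), and without mock library 2 the value was -0.13. Ggnbp1, a protein-coding gene on the opposite strand, spans all 9200 bases of Bak1, and the labels do not state that strand was kept. Ggnbp1 was listed at 4.72 and 5.39 RPKM in leukemia, 3.67 and 3.68 RPKM in preleukemia, and 2.70 and 3.12 RPKM in mock. The part of its reads in the level of Bak1 was not tested.

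Bcl2 and Bak1 are the members called in a comparison, and the 250 bases before their starts are shown because these genes stood in opposite order in preleukemia and mock. The sequences are from RefSeq on GRCm38.p6, 5′ to 3′ on the strand of the gene. Bcl2 is chr1:106714291-106714540 on the minus strand and Bak1 is chr17:27028628-27028877 on the minus strand, inside the span that GENCODE M21 gives the gene. Capitals mark matches, on either strand, to AGATAA (a core that the first zinc finger domain of Evi1 shares with GATA factors), GAAGATGAG (the site of its second domain), TGACG (the core of the cAMP response element) and GGAAG (the core read by many ETS factors).
Bcl2: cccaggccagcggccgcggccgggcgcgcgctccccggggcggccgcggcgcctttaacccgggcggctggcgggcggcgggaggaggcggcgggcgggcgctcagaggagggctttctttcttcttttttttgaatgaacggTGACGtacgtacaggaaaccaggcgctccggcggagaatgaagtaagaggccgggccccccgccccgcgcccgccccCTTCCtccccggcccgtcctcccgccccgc
Bak1: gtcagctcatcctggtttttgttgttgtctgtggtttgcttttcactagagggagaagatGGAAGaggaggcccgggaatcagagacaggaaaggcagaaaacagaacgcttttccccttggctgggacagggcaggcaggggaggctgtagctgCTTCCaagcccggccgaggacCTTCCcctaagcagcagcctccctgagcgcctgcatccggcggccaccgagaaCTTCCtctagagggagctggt
The letters AGATAA and GAAGATGAG were in neither window. TGACG occurred 1 time in Bcl2, starting 107 bases before the start, and GGAAG occurred 1 time in Bcl2 and 4 times in Bak1. Of 32851 windows of that length in the table, 9.99% held AGATAA, 0.347% GAAGATGAG, 17.8% TGACG and 64.1% GGAAG, so that GGAAG is common. The base composition differed, with 74.8% G and C for Bcl2 and 58.4% for Bak1. These matches describe the letters and are not shown to be sites. Of the 9 members, 8 had an entry in the promoter table.

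**Figure D3:**
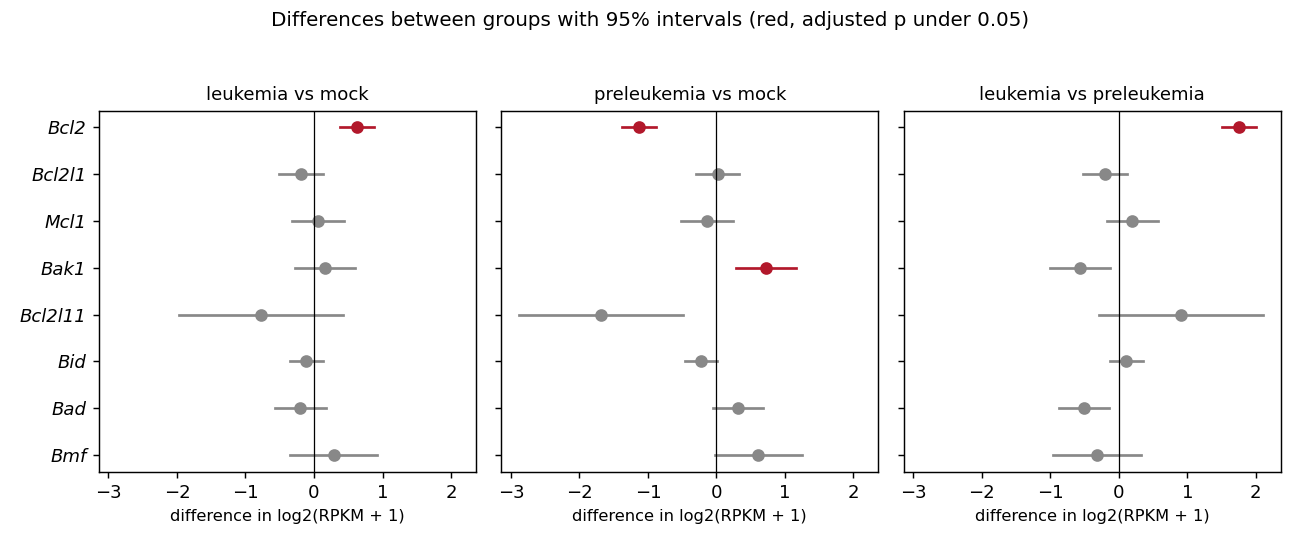
Difference in log2(RPKM + 1) with its 95% interval for the 8 members tested, in leukemia against mock, preleukemia against mock and leukemia against preleukemia; the group named first is higher to the right of 0, and red marks an adjusted p under 0.05. The intervals of Bcl2 lie clear of 0 in each panel, and those of Bcl2l11, whose mock libraries stand apart, are the widest.

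Of the BH3-only genes, Bcl2l11 encodes Bim, which binds all survival proteins and can activate Bak and Bax (chromosome 2, 128126038 to 128162547, plus strand, ENSMUSG00000027381.16). It had 5.24 and 4.80 RPKM in leukemia, 2.23 and 2.18 RPKM in preleukemia, and 4.54 and 18.2 RPKM in mock. Mock library 2 held 4.01 times the level of mock library 1, which is far more than the 788 and 2952 reads behind these values would give by counting error. Preleukemia lay below every other library, and leukemia lay between the mock libraries. The log2 fold change in preleukemia against mock was -1.69 (SE 0.50, limma adjusted p = 0.0599), which did not pass. It passed as lower without mock library 1 (-2.58, adjusted p = 0.000700) and without mock library 2 (-0.79, adjusted p = 0.0165), with 1 mock library assumed to vary like the other groups.

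In leukemia against mock Bcl2l11 gave -0.78 (limma adjusted p = 0.293), with -1.67 without mock library 1 (adjusted p = 0.00110) and 0.12 without mock library 2 (adjusted p = 0.502). In leukemia against preleukemia its mean was 2.28 times as high, with a log2 fold change of 0.91 that did not pass (SE 0.50, limma adjusted p = 0.256). In a fit of the 4 Evi1 libraries alone it passed as higher in leukemia (0.91, adjusted p = 0.00430). Bcl2l11 thus stood in the same order as Bcl2 between leukemia and preleukemia, and the ratio of Bcl2 to Bcl2l11 RPKM was 7.13 and 6.80 in leukemia, 4.25 and 4.49 in preleukemia, and 4.86 and 1.24 in mock.

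Bid carries the signal of death receptors to mitochondria after cleavage by caspase 8 (chromosome 6, 120891930 to 120916853, minus strand, ENSMUSG00000004446.12). It was the most even member, at 13.8 and 13.0 RPKM in leukemia, 12.5 and 12.2 RPKM in preleukemia, and 15.0 and 14.1 RPKM in mock. The groups did not overlap, with mock highest, leukemia between and preleukemia lowest, but no comparison passed. Its log2 fold change was -0.11 in leukemia against mock (95% interval -0.35 to 0.13, limma adjusted p = 0.436) and -0.22 in preleukemia against mock (95% interval -0.46 to 0.015, limma adjusted p = 0.160). In leukemia against preleukemia it was 0.11 (95% interval -0.13 to 0.35, limma adjusted p = 0.493). Bcl2l13, on the opposite strand, shares 913 bases with Bid.

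Bad is held inactive by survival kinases that phosphorylate it (chromosome 19, 6941861 to 6951899, plus strand, ENSMUSG00000024959.14). Its level was 4.53 and 5.86 RPKM in leukemia, 7.18 and 8.43 RPKM in preleukemia, and 6.48 and 5.67 RPKM in mock. Preleukemia lay above the other 4 libraries, and leukemia overlapped mock. The log2 fold change was -0.51 in leukemia against preleukemia (SE 0.15, limma adjusted p = 0.0636), which did not pass, and which passed as lower in the fit of the 4 Evi1 libraries (adjusted p = 0.0430). Against mock it was -0.20 in leukemia (95% interval -0.56 to 0.17, limma adjusted p = 0.377) and 0.31 in preleukemia (95% interval -0.052 to 0.68, limma adjusted p = 0.193). Gpr137, on the opposite strand, shares 620 bases with Bad and reached 8.53 RPKM.

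Bmf is released from the cell's motor complexes under stress (chromosome 2, 118528757 to 118549687, minus strand, ENSMUSG00000040093.15). It was low, at 1.38 and 1.26 RPKM in leukemia, 1.77 and 2.02 RPKM in preleukemia, and 0.423 and 1.53 RPKM in mock, which stand for 152 and 130 reads in leukemia, 157 and 230 reads in preleukemia, and 48 and 162 reads in mock. Preleukemia lay above the other 4 libraries, and the mock libraries differed 3.61 times. The log2 fold change was 0.29 in leukemia against mock (95% interval -0.35 to 0.93, limma adjusted p = 0.456) and 0.61 in preleukemia against mock (95% interval -0.027 to 1.25, limma adjusted p = 0.153). Without mock library 2 both passed as higher (0.70, adjusted p = 0.0265 in leukemia and 1.02, adjusted p = 0.0153 in preleukemia), and without mock library 1 they were -0.12 and 0.20 and did not pass. Leukemia against preleukemia gave -0.32 (limma adjusted p = 0.451).

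Bik encodes a BH3-only protein of the endoplasmic reticulum. It was listed at 0.454 and 0.108 RPKM in leukemia, 0.188 and 0.0490 RPKM in preleukemia, and 0 and 0.262 RPKM in mock (chromosome 15, 83526862 to 83544634, plus strand, ENSMUSG00000016758.4). The values are whole multiples, within 0.002, of 1 unit once scaled by the totals. If that unit is 1 read, they are 9 and 2 reads in leukemia, 3 and 1 reads in preleukemia, and 0 and 5 reads in mock. A difference between groups was not detectable at this depth.

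The order of the members by mean level changed between groups at the places of Bcl2 and Bcl2l11, and the other members kept their order among themselves. In leukemia it ran Mcl1, Bcl2, Bak1, Bid, Bad, Bcl2l11, Bcl2l1, Bmf and Bik, where the libraries of Bad and Bcl2l11 overlapped. In preleukemia it ran Mcl1, Bak1, Bid, Bcl2, Bad, Bcl2l1, Bcl2l11, Bmf and Bik, with no overlap between neighbours. In mock it ran Mcl1, Bcl2, Bak1, Bid, Bcl2l11, Bad, Bcl2l1, Bmf and Bik. There Bak1 overlapped Bid, and Bcl2l11 overlapped Bak1, Bid and Bad.

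Genes of the family beyond the 9 members were read from lists of the same fit. Over all genes tested, 12.1% were higher and 13.5% lower in leukemia against mock. The shares were 13.5% and 6.02% in preleukemia against mock, and 5.28% and 13.0% in leukemia against preleukemia. Of 5 other BH3-only genes 4 were tested. In leukemia against mock 1 was higher, in leukemia against preleukemia 2 were higher and 1 lower (Bnip3l, a mitochondrial receptor for autophagy, -0.45, limma adjusted p = 0.0325), and in preleukemia against mock none passed (2 at an unadjusted p under 0.05 in limma). The clearest was Pmaip1, which encodes Noxa, a p53 target that binds Mcl1, with 60.2 and 46.0 RPKM in leukemia, 6.21 and 8.36 RPKM in preleukemia, and 9.69 and 24.4 RPKM in mock. Both leukemia libraries stood above the other 4, and preleukemia below. Pmaip1 was higher in leukemia than in preleukemia by 2.71 on the log2 scale (SE 0.38, limma adjusted p = 0.00616), a ratio of 7.29, and passed under all 16 alternatives. It was higher in leukemia than in mock by 1.70 (SE 0.38, limma adjusted p = 0.0207), but not without leukemia library 1 (1.51, adjusted p = 0.107) or leukemia library 2 (1.89, adjusted p = 0.0662). Without mock library 1 it was 1.079 (adjusted p = 0.0157) and without mock library 2 it was 2.33 (adjusted p = 0.00250). Bbc3, which encodes Puma, another p53 target, had 18.1 and 16.6 RPKM in leukemia, 5.53 and 4.46 RPKM in preleukemia, and 6.06 and 19.0 RPKM in mock. Bbc3 was higher in leukemia than in preleukemia (1.62, limma adjusted p = 0.0439), and this did not pass without any 1 of the 4 Evi1 libraries (adjusted p = 0.138 to 0.214).

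**Figure D4:**
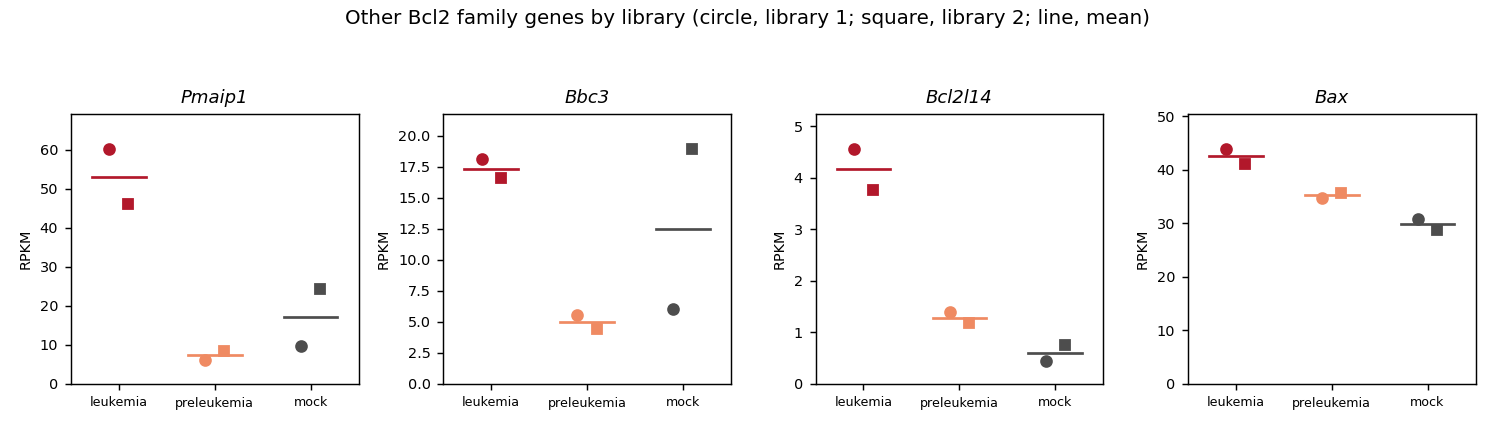
RPKM of Pmaip1, Bbc3, Bcl2l14 and Bax in each library, with leukemia, preleukemia and mock from left to right; circles are library 1, squares library 2 and lines the group mean, and each axis starts at 0. Pmaip1 reaches 46.0 and 60.2 RPKM in leukemia, and mock library 2 lies above mock library 1 for Pmaip1 and Bbc3.

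Bax, the second pore former, had 43.9 and 41.1 RPKM in leukemia, 34.7 and 35.7 RPKM in preleukemia, and 30.9 and 28.8 RPKM in mock, with no overlap between the 3 groups. It was higher in leukemia than in mock by 0.50 (SE 0.094, limma adjusted p = 0.0115), but not without leukemia library 1 (0.45, adjusted p = 0.0911) or leukemia library 2 (0.54, adjusted p = 0.0607). Its other comparisons did not pass. Bak1 and Bax together came to 63.6 and 60.6 RPKM in leukemia, 62.8 and 66.8 RPKM in preleukemia, and 52.5 and 43.0 RPKM in mock. Bok, a relative of Bax, did not pass in any comparison.

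Bcl2l14, which encodes the family member Bcl-G, had 4.56 and 3.77 RPKM in leukemia, 1.39 and 1.17 RPKM in preleukemia, and 0.441 and 0.750 RPKM in mock. The groups did not overlap. It was higher in leukemia than in mock by 1.70 (SE 0.17, limma adjusted p = 0.00127) and higher in leukemia than in preleukemia by 1.18 (limma adjusted p = 0.00633). The second did not pass without leukemia library 1 (1.07, adjusted p = 0.0580) or preleukemia library 2 (1.11, adjusted p = 0.0607). Bcl2l13, a mitochondrial relative that overlaps Bid, was lower in leukemia than in mock (-0.56, limma adjusted p = 0.0104), but not without leukemia library 1 (adjusted p = 0.0728) or leukemia library 2 (adjusted p = 0.0808). None of the 6 other survival genes could be tested: Bcl2l2 reached 0.424 RPKM, Bcl2a1b 0.679, and the remaining Bcl2a1 copies and Bcl2l10 no more than 0.116. The Bcl2a1 genes are near-identical copies whose levels are uncertain.

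Upstream of Bid, 8 of 10 death receptor genes were tested. In leukemia against mock 1 was higher and none lower, in preleukemia against mock 2 were higher and none lower, and in leukemia against preleukemia 1 was lower and none higher. Of all genes tested, 12.1% were higher and 13.5% lower in leukemia against mock. The shares were 13.5% and 6.02% in preleukemia against mock, and 5.28% and 13.0% in leukemia against preleukemia. With 8 genes, these counts do not stand out from those shares. The gene higher in leukemia was Casp8, the caspase that cleaves Bid, with 38.9 and 36.6 RPKM in leukemia, 35.3 and 34.8 RPKM in preleukemia, and 29.7 and 27.2 RPKM in mock (0.40 against mock, limma adjusted p = 0.0252). Those higher in preleukemia than in mock were Tnfrsf1a, a receptor of TNF (0.72, limma adjusted p = 0.0222), and Cflar, the inhibitor of caspase 8 (0.43, limma adjusted p = 0.0402). Tnfrsf1a had 30.9 and 33.9 RPKM in leukemia, 48.7 and 58.9 RPKM in preleukemia, and 28.2 and 36.6 RPKM in mock, and was lower in leukemia than in preleukemia (-0.71, limma adjusted p = 0.0240). Fas reached 0.949 RPKM and Fasl 0.0716 RPKM, and neither was tested.

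Downstream of the pore, 14 of 14 genes of the apoptosome and caspases were tested. Set against mock, 2 were lower and none higher in leukemia, where 13.5% of all genes tested were lower and 12.1% higher. In preleukemia against mock 1 was lower and none higher, where 6.02% of all genes were lower and 13.5% higher. In leukemia against preleukemia 2 were lower and 1 higher, where 13.0% of all genes were lower and 5.28% higher. With 14 genes, these counts do not stand out from those shares. Cycs, cytochrome c, had 11.9 and 10.7 RPKM in leukemia, 17.6 and 17.4 RPKM in preleukemia, and 23.0 and 16.4 RPKM in mock. It was lower in leukemia than in mock (-0.73, limma adjusted p = 0.0194) and than in preleukemia (-0.59, limma adjusted p = 0.0490). Apaf1, the scaffold that cytochrome c assembles, was lower in leukemia than in preleukemia (-0.65, limma adjusted p = 0.0173), and Casp2, an initiator caspase, was higher (0.40, limma adjusted p = 0.0318). Endog, a mitochondrial nuclease, was lower in leukemia than in mock (-0.57, limma adjusted p = 0.0347) and Parp1, a caspase substrate, in preleukemia than in mock (-0.59, limma adjusted p = 0.0374).

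Of 6 inhibitor of apoptosis genes 6 were tested. Against mock, 1 was higher and 1 lower in leukemia and 1 was higher in preleukemia, and in leukemia against preleukemia 1 was lower. Of all genes tested, 12.1% were higher and 13.5% lower in leukemia against mock. The shares were 13.5% and 6.02% in preleukemia against mock, and 5.28% and 13.0% in leukemia against preleukemia. With 6 genes, these counts do not stand out from those shares. Xiap, which blocks caspases directly, had 13.0 and 15.0 RPKM in leukemia, 14.6 and 14.4 RPKM in preleukemia, and 11.01 and 8.43 RPKM in mock. It was higher in leukemia than in mock (0.50, limma adjusted p = 0.0472) and in preleukemia than in mock (0.54, limma adjusted p = 0.0434). Naip2, a relative that senses bacterial proteins, was lower in leukemia than in mock (-0.94, limma adjusted p = 0.0211) and than in preleukemia (-1.11, limma adjusted p = 0.0163). In the list of 22 genes that act on Bcl2 family members or their transcripts 21 were tested. In leukemia against mock 1 was higher and 4 lower, in preleukemia against mock 2 were higher and 1 lower, and in leukemia against preleukemia none was higher and 3 lower. With 21 genes, these counts do not stand out from the shares just given for all genes. Pim2, a kinase that phosphorylates Bad, had 4.29 and 4.30 RPKM in leukemia, 5.54 and 5.46 RPKM in preleukemia, and 1.69 and 2.60 RPKM in mock, and was higher than in mock in leukemia (0.77, limma adjusted p = 0.0177) and in preleukemia (1.06, limma adjusted p = 0.00765). Ppp3ca, a catalytic subunit of calcineurin, which dephosphorylates Bad, had 16.1 and 19.9 RPKM in leukemia, 25.0 and 27.1 RPKM in preleukemia, and 16.4 and 16.2 RPKM in mock. It was higher in preleukemia than in mock (0.64, limma adjusted p = 0.0162) and lower in leukemia than in preleukemia (-0.52, limma adjusted p = 0.0335). Foxo3, a transcription factor known to induce Bcl2l11, was lower in preleukemia than in mock (-0.51, limma adjusted p = 0.0249). Dynll1, a light chain that holds Bim, was lower in leukemia than in preleukemia (-0.75, limma adjusted p = 0.0285), as was the kinase Akt2 (-0.41, limma adjusted p = 0.0376). The 4 genes lower in leukemia than in mock were Akt2 (-0.48, limma adjusted p = 0.0178) and the kinase Mapk9 (-0.53, adjusted p = 0.0275) and the chaperone partners Bag1 (-0.55, adjusted p = 0.0152) and Bag3 (-1.09, adjusted p = 0.0245).

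In leukemia against mock, preleukemia against mock and leukemia against preleukemia, in that order, the median log2 fold change of the other BH3-only genes was 0.56, -0.40 and 0.83. It was 0.074, 0.36 and -0.26 for the death receptor genes, -0.27, -0.080 and -0.19 for the apoptosome and caspases, 0.089, 0.16 and -0.041 for the inhibitors of apoptosis, and -0.12, -0.025 and -0.20 for the regulators. All genes tested had -0.040, 0.054 and -0.091.

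Of the 33 calls in the lists beyond the members, 31 were lost when at least 1 library was left out, and the 2 that were not are Pmaip1 in leukemia against preleukemia and Bcl2l14 in leukemia against mock. For the death receptor genes the highest adjusted p without 1 library was 0.156 to 0.261, for the apoptosome and caspases 0.118 to 0.223, for the inhibitors of apoptosis 0.0937 to 0.251 and for the regulators 0.0646 to 0.248. Leaving out a mock library ended 6 of these calls. In limma without mock library 1, Endog in leukemia against mock had an adjusted p of 0.0685 and Parp1 in preleukemia against mock 0.0513. Without mock library 2, the adjusted p was 0.0843 for Xiap and 0.0537 for Naip2 in leukemia against mock, and 0.0789 for Xiap and 0.0650 for Cflar in preleukemia against mock.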

How the data were processed

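RNA was sequenced from 6 libraries of sorted mouse bone marrow cells, made with the NEB Next Ultra RNA kit per the labels' protocols. CASAVA 1.8.2 and GRCm38 stand in the submitters' processing notes, with no roles. No aligner, counting tool or annotation was given in the sources used here. The values deposited by the authors are taken to be RPKM: multiplied by exon lengths of GENCODE M21, 64.1% to 65.6% of the values below 20 reads fell on whole reads with a tolerance of 0.02, for which chance gives 4%. The step gives each library's total. The 95% intervals come from the limma fit and rest on the spread between libraries. Gene positions are from that annotation, and 35433 rows matched it.

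The comparisons used limma 3.58.1 (R 4.3.3) on log2(RPKM + 1), a scale that understates changes of low genes. The fit held the 3 group means over all 6 libraries, with a spread that follows the mean, two-sided tests and Benjamini-Hochberg adjustment over 10957 genes (the second row of each of 2 repeated names was left out). The fit was tested on simulated data. Alternatives were other pseudocounts, filters, scalings and spreads, a replicate block, leaving out each library, a fit of the 4 libraries compared, and array weights (chosen after seeing the data). All members are named, with up to 4 genes of smallest p per list and comparison. Relb, Nr4a1, Ggnbp1, Gpr137 and Mapk9, marker genes, the genes named as not passed or not tested, and the promoter motifs were chosen after their values or sequences were seen. The members and lists were chosen with earlier results of these data known.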

Additional observations from a re-analysis of the deposited data

How the results depend on the processing

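Of the member values under 16 alternatives, 343 kept direction and side of the threshold, 20 newly passed, 7 no longer passed (6 of Bak1 in preleukemia against mock and 1 of Bcl2 in leukemia against mock) and 8 changed sign, none of which had passed. Those of Bcl2l1 in preleukemia against mock were -0.022 after TMM-like scaling, -0.093 after quantile normalization and -0.046 without preleukemia library 1 (-0.046 to 0.080 over the libraries left out). The others changed sign without 1 mock library, where Mcl1 ranged over -0.37 to 0.10 in preleukemia against mock, and in leukemia against mock Mcl1 ranged over -0.18 to 0.30, Bak1 over -0.13 to 0.44, Bcl2l11 over -1.67 to 0.12 and Bmf over -0.12 to 0.70. Mock library 1 gave the negative end for Mcl1, Bcl2l11 and Bmf when left out, and mock library 2 that for Bak1. The cause was not tested. With each library left out, the members called numbered 0 to 3 in leukemia against mock (reported 1), 1 to 4 in preleukemia against mock (reported 2) and 1 to 4 in leukemia against preleukemia (reported 1), and all genes called 1046 to 3848 (reported 2809), 513 to 3873 (reported 2139) and 430 to 3449 (reported 2006). In a fit of the 4 libraries compared, 1 member and 1374 genes were called in preleukemia against mock, and 4 members and 3428 genes in leukemia against preleukemia. Array weights gave 1420 genes in preleukemia against mock, and 4 members and 3786 genes in leukemia against preleukemia. With no filter on low values 1 member was called in preleukemia against mock and 1302 genes in leukemia against preleukemia, and with a mean of at least 5 RPKM 1698, 1355 and 1231 genes were called, where fewer genes were tested. Quantile normalization shifted the median of all genes by 0.12 in leukemia against preleukemia and by less than 0.1 in the others. It moved the share of calls that were higher to 52.8% in preleukemia against mock (reported 69.1%) and 50.8% in leukemia against preleukemia (reported 28.8%), where TMM-like scaling gave 44.1%.

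With the replicate number as a block the members called numbered 1, 2 and 1 in the 3 comparisons, and 2932, 2118 and 2060 genes. The deviations of libraries with the same number correlated at 0.18 for leukemia and preleukemia, 0.013 for leukemia and mock, and 0.12 for preleukemia and mock, so that the numbers were not taken to pair the libraries. A fit without 1 library of a group assumes that the lone library varies like the other groups. With 2 libraries a group, small differences of members near 2 RPKM, such as Bcl2l1 and Bmf, were not detectable.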

Other observations

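The genes whose pattern over the 6 libraries was most like that of the called members were read as a description, with no test, by Pearson's r of log2(RPKM + 1) among 10120 named genes; the points share their libraries and fall into 3 groups. For Bcl2 the closest were Frmd4b, a scaffold protein gene (r = 0.992), Tef, a clock-controlled transcription factor (r = 0.988), and Ivns1abp (r = 0.987), and 51 genes lay above 0.95. Ivns1abp, the most abundant of them, had 240 and 260 RPKM in leukemia, 106 and 104 RPKM in preleukemia, and 171 and 174 RPKM in mock. Frmd4b was low, at 1.13 and 1.06 RPKM in leukemia, 0.272 and 0.265 RPKM in preleukemia, and 0.642 and 0.687 RPKM in mock. It reached 1 RPKM in the leukemia libraries only and passed the filter through them, so its rank is no support for a shared pattern. For Bak1 the closest were Gnpda1, a glucosamine-6-phosphate deaminase (r = 0.9982), Kdm8 (r = 0.996) and Agpat1, an enzyme of phospholipid synthesis (r = 0.995), and 185 genes lay above 0.95. Gnpda1 had 6.96 and 6.64 RPKM in leukemia, 10.7 and 12.5 RPKM in preleukemia, and 7.35 and 4.30 RPKM in mock.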
